A study of Mus musculus with 10 samples.

Results

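Cytochrome P450 enzymes of families 1 to 4 were examined in epithelial cells sorted from the livers of mice injured with DDC (3,5-diethoxycarbonyl-1,4-dihydrocollidine). The genes were taken by symbol, as every Cyp symbol of families 1 to 4 written as a family number, 1 subfamily letter and a gene number. This gave 75 of the 49568 genes in the table, with 3 genes in family 1, 48 in family 2, 7 in family 3 and 17 in family 4. Another 25 symbols of the same families have a different form and were not members, among them 18 pseudogenes and Cyp2ab1, Cyp3a41a and Cyp4a12a.

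The data are RNA-seq profiles of 10 mice, 1 sample per mouse, in 2 cohorts of 5. The Ctl cohort is labelled Smad4wt/wt, and by the study's methods its mice carry no Alb-Cre. The Smad4del cohort carries Smad4fl/fl with Alb-Cre, in which the albumin promoter drives Cre recombinase in cells of the hepatoblast lineage, so the cohorts differ in Cre as well as in the Smad4 allele. Every mouse, on a mixed background, was fed DDC at 0.1% for 2 weeks, and viable EPCAM+/CD45-/TER119- cells were collected by flow cytometry. Age and sex are not given in the labels. Smad4, the shared partner of the TGFβ and BMP receptor SMADs, read 3058, 3714, 3584, 2969 and 3619 normalised counts in Ctl mice A5215, A5219, A5221, A5626 and A5628, and 812, 1031, 687, 1011 and 846 in Smad4del mice A5216, A5217, A5218, A5447 and A5624. The values lie apart in the direction of the labels (log2 fold change, Smad4del against Ctl, -1.96). A normalised count is a read count divided by 1 scaling factor per mouse, and each mouse had 16249719 to 21277339 reads on genes.

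P450 enzymes are heme-containing monooxygenases of the endoplasmic reticulum that take electrons from P450 oxidoreductase and insert an oxygen atom into drugs, pollutants, steroids and fatty acids. Family 1 is induced by the aryl hydrocarbon receptor (AHR), families 2 and 3 hold most drug-metabolising enzymes of hepatocytes together with the arachidonate epoxygenases, and family 4 holds fatty acid ω-hydroxylases. DDC itself is a suicide substrate of P450: the enzyme's heme is alkylated, the product blocks ferrochelatase, and the porphyrin that then accumulates injures the bile ducts. Hepatocytes are the main P450 cell of the liver, and cholangiocytes carry far less.

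The sorted cells carried the cholangiocyte markers of the label. Epcam ranged from 16857 to 28441 normalised counts and Krt19 from 17234 to 37872, and all 18 cholangiocyte markers in the list passed the filter on low values. Their sum was 524926 to 729142 in Ctl and 729935 to 890712 in Smad4del, apart by a narrow margin, with 4 of the 18 called higher (Krt19, Anxa4, Muc1 and Onecut1) and 1 lower (Sctr). Transcripts of other cells were present too. The summed hepatocyte markers ranged from 92675 to 129367 normalised counts in Ctl and from 101180 to 153647 in Smad4del, and the summed endothelial markers from 32447 to 87572 in Ctl and from 11578 to 23024 in Smad4del, with no overlap. Of 20 endothelial markers, 17 were lower in Smad4del (adjusted p under 0.05). Macrophage markers summed to 39722 to 337913 in Ctl and 28589 to 115338 in Smad4del, highest in Ctl mouse A5215, and none of the 15 was called, although 14 of 15 had an unadjusted p under 0.05. Xist, which marks female cells, read 769 and 823 normalised counts in Ctl mice A5221 and A5628 and 889 in Smad4del mouse A5447, 1.70 in Ctl mouse A5219 and 0 in the other 6. The summed Y-linked genes read 0 in A5221, 1.11 in A5628 and 0.92 in A5447, and 2728 to 4109 in the remaining mice. By these transcripts A5221, A5628 and A5447 read as female and the remaining mice as male.

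The P450 genes together made up 0.0961% to 0.147% of the reads of each mouse. The most abundant, Cyp2j6, stood at rank 552 of all genes by mean normalised count. The first 4 members by level accounted for 58.9% of all normalised counts of the 75. In all mice 9 members were at 0, namely Cyp2b13, Cyp2b19, Cyp2b23, Cyp2c40, Cyp2j7, Cyp2j12, Cyp3a16, Cyp3a57 and Cyp4a29, and another 28 had a mean above 0 and under 10 normalised counts. The remaining 38, with a mean of at least 10, entered the test.

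Per kilobase of exon, the levels were headed by 3 genes of family 2. Cyp2j6, an arachidonate epoxygenase, averaged 1326 normalised counts per kb over the 10 mice (1146 to 1609). Cyp2d22 averaged 1016 (789.8 to 1518) and Cyp2j5, the second epoxygenase of this locus on chromosome 4, averaged 864 (561 to 1383). The ranges of these neighbours overlap. Next came Cyp4b1 at 409.6, Cyp2d10 at 347, Cyp4v3 at 328, Cyp4f16 at 234, Cyp4f13 at 201 and Cyp2s1 at 195 normalised counts per kb, again with overlapping ranges between neighbours. The place of Cyp4b1 leans on Ctl mouse A5215, at 3549.5 normalised counts against 255 to 1121 in the other mice. The classical hepatocyte enzymes lay lower and varied more, with Cyp3a11 at 179 (39.97 to 953), Cyp2e1 at 158 (30.1 to 385), Cyp2c29 at 92.8 (14.8 to 421) and Cyp1a2 at 59.1 normalised counts per kb (8.44 to 294).

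**Figure D1:**
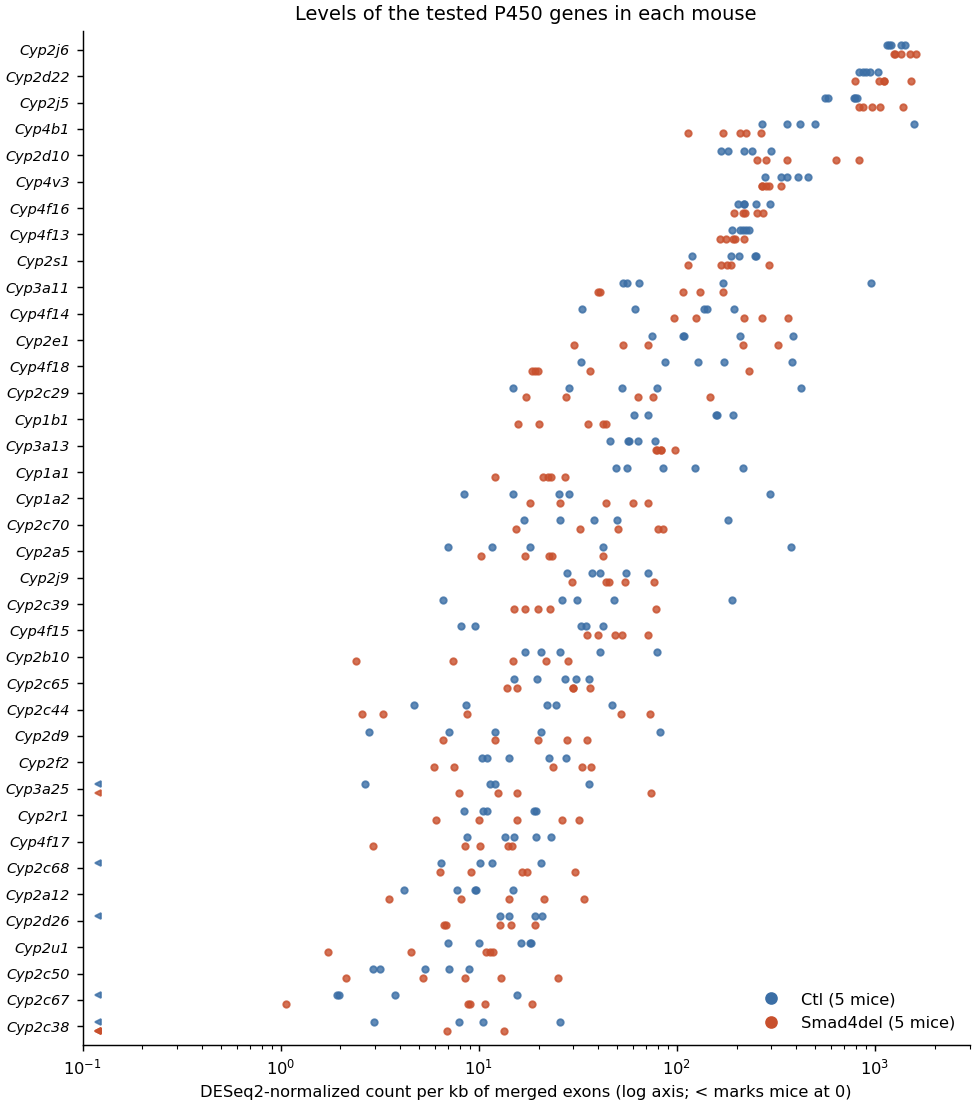
Normalised counts per kilobase of exon (log axis) of the 38 tested P450 genes, ordered by mean level, with 1 point per mouse, Ctl and Smad4del in different colours and an arrowhead at the edge for mice at 0. Cyp2j6, Cyp2d22 and Cyp2j5 form the top with mice close together, whereas Cyp3a11 spreads from 39.97 to 953.

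Within a cohort, the median SD between mice was 0.93 on the log2 scale for the 38 tested members and 0.30 for all 14870 genes tested. These sets were not matched for level, so the difference is not shown to be a trait of P450 genes. The 3 most abundant members varied little, with SDs of 0.15 for Cyp2j6, 0.25 for Cyp2d22 and 0.28 for Cyp2j5. Cyp3a11 (1.43), Cyp4f18 (1.42) and Cyp2e1 (1.203) varied more than these.

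The comparison of the cohorts asks what loss of Smad4 in DDC-injured biliary cells does to these enzymes. By limma on log2(normalised count + 1), with Benjamini-Hochberg adjustment over all 14870 genes, 2 of the 38 tested members were called lower (adjusted p under 0.05) in Smad4del, 0 were higher and 36 were not called. Both that fell are family 1 genes, Cyp1a1 and Cyp1b1. Over all genes tested, 4.69% were called lower and 2.43% higher (7.12% in either direction), against 5.26% of the tested members called in either direction. At an unadjusted p under 0.05 there were 10 members, 4 higher and 6 lower, where 27.4% of all genes pass that limit. Cohorts did not overlap for 5 members, 2 higher (Cyp2j5 and Cyp3a13) and 3 lower (Cyp1a1, Cyp1b1 and Cyp4b1), and over all genes 3.5% lay apart upwards and 4.59% downwards. The median log2 fold change was 0.00479 for the 38 members and -0.00497 for all genes, with 19 members on each side of 0. These shares are near those of other genes, and both calls were in family 1. The count models on reads recovered from the table gave the same 2 genes in edgeR, where 2.1% of all genes were called higher and 4.02% lower (6.13% in either direction). DESeq2, with 6.01% of all genes higher and 8.68% lower (14.7%), called Cyp1a1, Cyp1b1 and Cyp4b1 lower and Cyp2d10 and Cyp2j5 higher, and without Smad4del mouse A5217 (2.99% higher, 6.31% lower, 9.3% in all) Cyp2j5 was no longer among them.

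**Figure D2:**
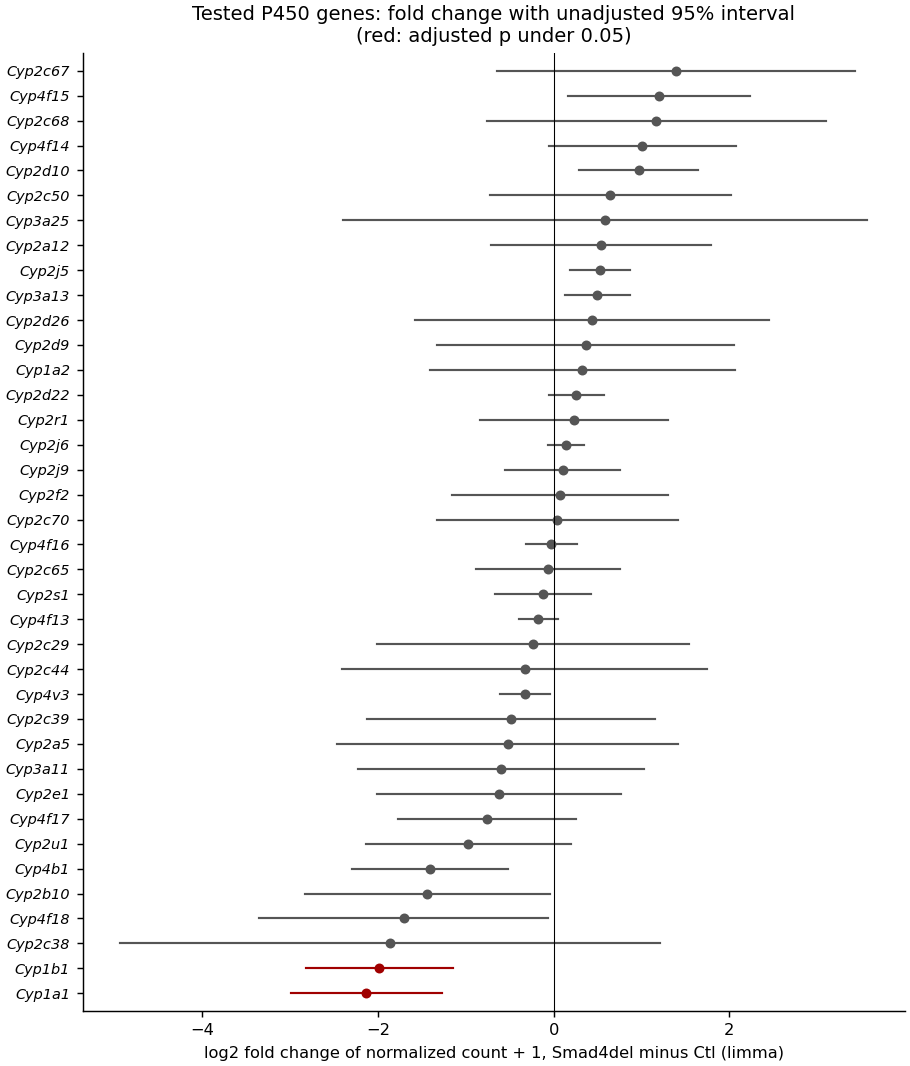
Log2 fold change (Smad4del minus Ctl) with its 95% confidence interval for each tested P450 gene, 5 mice per cohort, with called genes marked. Cyp1a1 (-2.13) and Cyp1b1 (-1.99) are the 2 called genes, and the intervals of the hepatocyte enzymes such as Cyp3a11 (-2.23 to 1.03) are wide.

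Family 1 held both called genes. Cyp1a1, which hydroxylates polycyclic aromatic hydrocarbons and is the best known AHR target, read 602, 137, 238, 342 and 155 normalised counts in Ctl mice A5215, A5219, A5221, A5626 and A5628, and 62.2, 58.9, 33.5, 64.5 and 76.2 in Smad4del mice A5216, A5217, A5218, A5447 and A5624. Every Ctl mouse was above every Smad4del mouse, and the Ctl mice spread over a wider range. The mean was 295 ± 190 in Ctl and 59.1 ± 15.7 in Smad4del (SD, n = 5 each), 4.38-fold lower in Smad4del by the fit on log2(normalised count + 1). Its log2 fold change was -2.13 (SE 0.39, 95% confidence interval -2.99 to -1.27, limma adjusted p = 0.00996), and the exact two-sided permutation test over mice gave p = 0.00794, the smallest that 5 against 5 mice can give.

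Cyp1b1, which oxidises estradiol and procarcinogens and is known for expression outside the hepatocyte, gave 929, 418, 924, 353 and 1126 normalised counts in the 5 Ctl mice, in the same order, and 255, 118, 92.3, 208 and 247 in the 5 Smad4del mice. The cohorts again lie apart, and Ctl mouse A5628, the highest for Cyp1b1, was among the lowest Ctl mice for Cyp1a1. The means were 750.0 ± 343 and 184 ± 74.9 (SD, n = 5 each), with a log2 fold change of -1.99 (SE 0.38, 95% confidence interval -2.83 to -1.15, limma adjusted p = 0.0125, exact permutation p = 0.00794).

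Cyp1a2, the hepatocyte member of the family that metabolises caffeine and that shares its locus with Cyp1a1, did not follow. It was named after its values were seen. Its normalised counts were 51.1, 16.99, 57.4, 593 and 30.0 in Ctl and 121, 144, 36.5, 51.6 and 88.7 in Smad4del. The cohorts overlap, with Ctl mouse A5626 far above the rest. The log2 fold change was 0.33 (SE 0.80, 95% confidence interval -1.41 to 2.06, limma adjusted p = 0.824), and its sign turned without Ctl mouse A5219 (-0.13) and in the count models (-0.76 with DESeq2), so no direction can be given. Summed over the 3 genes, family 1 ranged from 572 to 1582 normalised counts in Ctl and from 162 to 439 in Smad4del.

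Cyp1a1 lies at chr9:57687928-57703824 on the plus strand and Cyp1a2 at chr9:57676937-57683703 on the minus strand (GRCm38), head to head with RefSeq start sites 13958 bases apart (4225 bases between the GENCODE gene bounds given here). Cyp1b1 lies at chr17:79701537-79715061 on the minus strand. The 250 bases before each RefSeq start site are shown for these 3 genes because AHR binds the core GCGTG, which is in capitals on either strand (CACGC is its reverse complement). All were taken from RefSeq on GRCm38.p6 and run 5′ to 3′ along the gene's strand. The windows are chr9:57697363-57697612 for Cyp1a1, chr17:79715062-79715311 for Cyp1b1 and chr9:57683656-57683905 for Cyp1a2.
Cyp1a1: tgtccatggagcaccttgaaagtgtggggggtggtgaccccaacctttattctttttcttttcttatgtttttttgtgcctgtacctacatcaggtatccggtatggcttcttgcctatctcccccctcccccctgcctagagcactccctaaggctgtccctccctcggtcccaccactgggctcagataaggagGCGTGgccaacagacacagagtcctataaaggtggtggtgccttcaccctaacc
Cyp1b1: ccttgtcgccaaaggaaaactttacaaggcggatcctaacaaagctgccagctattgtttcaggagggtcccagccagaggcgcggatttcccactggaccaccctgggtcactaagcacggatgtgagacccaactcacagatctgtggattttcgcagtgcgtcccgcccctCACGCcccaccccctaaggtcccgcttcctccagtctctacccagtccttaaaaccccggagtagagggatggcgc
Cyp1a2: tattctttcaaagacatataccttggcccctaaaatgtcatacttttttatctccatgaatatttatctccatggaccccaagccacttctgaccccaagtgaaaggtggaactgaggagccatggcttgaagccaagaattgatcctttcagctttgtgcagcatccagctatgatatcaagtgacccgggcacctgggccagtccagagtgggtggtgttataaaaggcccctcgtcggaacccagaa
Cyp1a1 holds the core once, 54 bases before the start site, Cyp1b1 once, 76 bases before it, and Cyp1a2 not at all in this window. The core is common: it is in 28.2% of 32851 windows of all genes and in 12 of the 62 P450 members that have a window, Cyp4v3 (16 bases before the start) and Cyp2j9 among them, neither of which was called. The longer element TNGCGTG was in none of the 3 windows, in 4.10% of all windows and in 1 of 62 members, Cyp2c68. The palindromic SMAD site GTCTAGAC was in 0 of 62 members (0.167% of all windows), and the shorter CAGACA, which holds the SMAD-binding letters AGAC, in 8 of 62, Cyp1a1 among them (17.1% of all windows). A match of these letters is not evidence of binding, and the enhancers known for Cyp1a1 lie further upstream than this window.

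The endothelial markers lay apart between the cohorts in the same direction as Cyp1a1 and Cyp1b1. In Ctl mice A5215, A5219, A5221, A5626 and A5628 the 20 markers summed to 87572, 32447, 50389.7, 51233 and 48383 normalised counts, and in Smad4del mice A5216, A5217, A5218, A5447 and A5624 to 18297, 12419, 11578, 17996 and 23024. None of the 20 was at 0 in all mice, and the defining genes Pecam1 (2203 to 4616 in Ctl, 774 to 1459 in Smad4del) and Cdh5 (548 to 1474 in Ctl, 229 to 384 in Smad4del) showed the same separation. Within Ctl, Cyp1a1 was highest in A5215 (602) and lowest in A5219 (137), as was the marker sum. Cyp1b1 did not follow the sum there: it was lowest in A5626 (353) and highest in A5628 (1126). Per 1000 endothelial marker counts, Cyp1a1 ran from 3.21 to 6.87 in Ctl and from 2.89 to 4.74 in Smad4del, and Cyp1b1 from 6.89 to 23.3 in Ctl and from 7.97 to 13.9 in Smad4del, so that both overlapped. Smad4 itself, the targeted gene, overlapped by the same ratio, at 34.9 to 114 in Ctl and 36.7 to 83.0 in Smad4del. An overlap of this ratio therefore cannot tell a gene that follows these markers from one that does not. With the mean log2 level of the endothelial markers in the model, the log2 fold changes were -0.08 for Cyp1a1 and -0.33 for Cyp1b1 (limma adjusted p = 0.997 for each). However, in that fit 0% of all genes were called, and Smad4 was not called either. Smad4 had a log2 fold change of -2.002 with an adjusted p = 0.0712 there, while 739 genes had an unadjusted p under 0.05. The marker sum does not overlap between the cohorts, so the part of these markers in the result cannot be told apart from that of the genotype. In a bulk sample, fewer cells of a type and less RNA per cell cannot be told apart.

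Mesenchymal markers also lay apart between the cohorts, with sums of 18049 to 48188 in Ctl and 8754 to 15414 in Smad4del, and 2 of the 12 were called lower and none was at 0 in all mice. Per 1000 mesenchymal marker counts, Cyp1b1 was 14.8 to 48.6 in Ctl and 5.99 to 29.1 in Smad4del and Cyp1a1 4.84 to 19.0 and 2.17 to 7.11, with overlap. Smad4 overlapped by this ratio too, at 63.5 to 164 in Ctl and 44.5 to 92.7 in Smad4del. The part of these cells in the result was not tested. Per 1000 hepatocyte marker counts, Cyp1a1 was 1.057 to 6.05 in Ctl and 0.243 to 0.648 in Smad4del, and Cyp1b1 was 2.92 to 9.97 in Ctl and 0.669 to 2.10 in Smad4del, without overlap for either gene. With the mean log2 macrophage marker level in the model, Cyp1b1 stayed called (-2.18, limma adjusted p = 0.0319) and Cyp1a1 did not (-1.71, adjusted p = 0.0582). With the mean log2 hepatocyte marker level, neither was called (Cyp1a1 -2.17, adjusted p = 0.0984, and Cyp1b1 -1.73, adjusted p = 0.149), in a fit that called 0.101% of all genes higher and 0.383% lower (0.484% in all). Without Ctl mice A5215 and A5626, an alternative chosen after seeing the data, both stayed called (Cyp1a1 -1.57, adjusted p = 0.0395, and Cyp1b1 -2.15, adjusted p = 0.0288). Without the 3 mice with Xist, also chosen after seeing the data, neither was (Cyp1a1 -2.44, adjusted p = 0.0601, and Cyp1b1 -1.66, adjusted p = 0.0953).

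**Figure D3:**
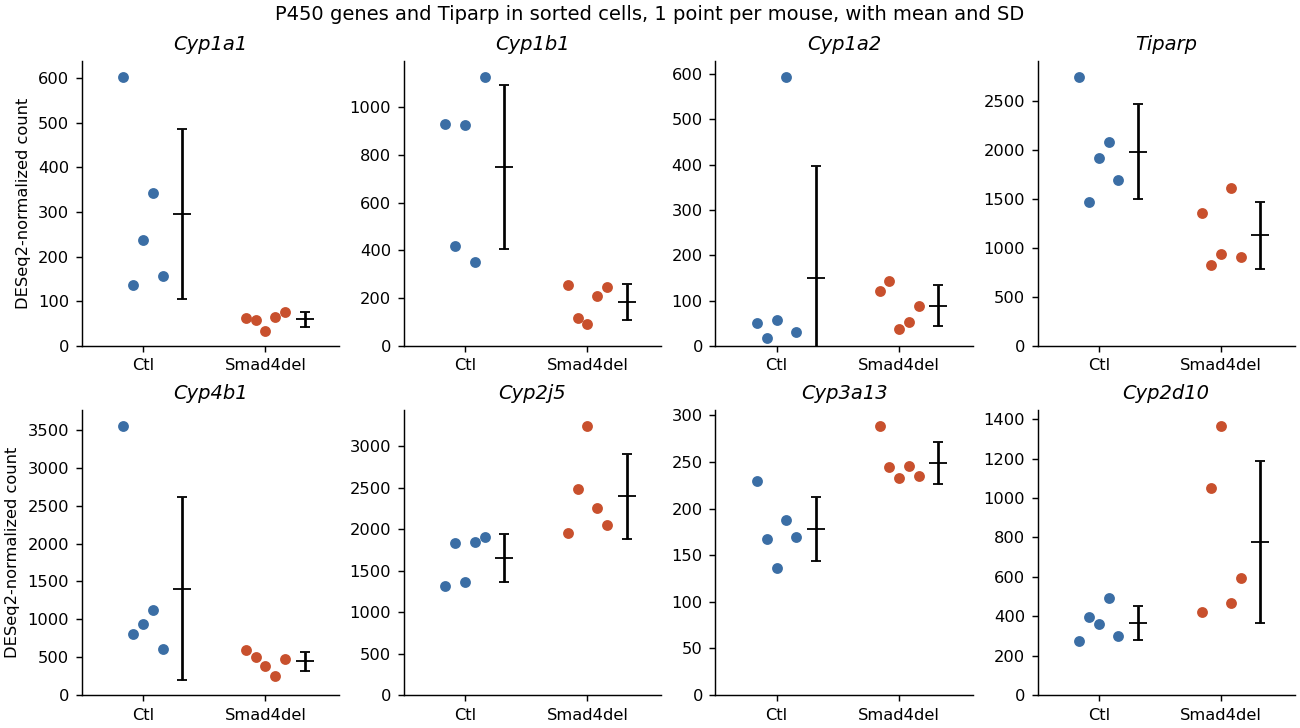
Normalised counts of 7 P450 genes and Tiparp in each mouse (points), with the mean and SD of the 5 mice of each cohort (bars, cut at 0). Cyp1a1, Cyp1b1 and Cyp4b1 lie apart downwards in Smad4del and Cyp2j5 and Cyp3a13 upwards, while Cyp1a2 overlaps with 1 Ctl mouse at 593.

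Genes outside the P450 families that belong to the AHR pathway were read beside family 1. Of the 5 tested AHR targets of the list, 1 was called, lower: Tiparp, the ADP-ribosyltransferase that represses AHR, at 1468 to 2741 normalised counts in Ctl and 825 to 1607 in Smad4del (log2 fold change -0.83, SE 0.21, limma adjusted p = 0.0353), so that its cohorts overlap. Xdh, xanthine dehydrogenase, stood at -0.92 (adjusted p = 0.0587) and the quinone reductase Nqo1 -0.88 (adjusted p = 0.0701), neither past the threshold. Aldh3a1 stood at -1.12 (adjusted p = 0.528) and the glutathione transferase Gsta1 in the other direction at 1.38 (adjusted p = 0.113), so that 4 of the 5 were below 0 and 1 above. Ahr itself ranged from 3013 to 3487 normalised counts in Ctl and from 1637 to 3491 in Smad4del (-0.47, adjusted p = 0.104). Ahrr, the AHR repressor, was at 0 in 8 mice and had 30.5 and 19.2 normalised counts in Ctl mice A5215 and A5626. Tiparp too had a log2 fold change near 0 (0.04) with the mean log2 endothelial marker level in the model, and lost its call when any 1 of Ctl mice A5215, A5221 and A5626 or Smad4del mice A5217, A5218 and A5624 was left out (adjusted p = 0.0703 to 0.0897).

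The epoxygenases, which convert arachidonic acid to epoxyeicosatrienoic acids, summed to 5795 to 8051 normalised counts in Ctl and 7122 to 9140.4 in Smad4del, and none of 8 tested members in the list of 12 was called. Cyp2j5 read 1317, 1839.6, 1358, 1851 and 1903 normalised counts in Ctl mice A5215, A5219, A5221, A5626 and A5628, and 1952, 2491, 3243, 2259 and 2049 in Smad4del mice A5216, A5217, A5218, A5447 and A5624. All Smad4del mice were above all Ctl mice, narrowly so between Ctl mouse A5628 and Smad4del mouse A5216. The log2 fold change was 0.53 (SE 0.16, 95% confidence interval 0.19 to 0.87), with an exact permutation p = 0.00794 but a limma adjusted p = 0.0605. It passed the threshold without Smad4del mouse A5216 (adjusted p = 0.0492), after median scaling (adjusted p = 0.0470) and in DESeq2 over all 10 mice, and not in edgeR. Its neighbour Cyp2j6 read 4338, 4901, 4132, 4225 and 5117 in Ctl and 4879.9, 5800.1, 5383, 4505 and 4532 in Smad4del. Those cohorts overlap, and the log2 fold change was 0.14 (95% confidence interval -0.07 to 0.35, adjusted p = 0.355). The epoxygenases of the Cyp2c subfamily were far lower, and Cyp2c29 read 45.3 to 1289.8 normalised counts in Ctl and 52.7 to 448 in Smad4del.

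Among drug-metabolising enzymes, Cyp2d10 and Cyp3a13 had the clearest differences, both upwards and neither called by limma. Cyp2d10 gave 275, 395, 361, 491 and 299.7 normalised counts in Ctl and 419.9, 1050.2, 1364, 466 and 595 in Smad4del. The cohorts overlap through Ctl mouse A5626 alone, and Smad4del mice A5217 and A5218 were well above all others. Its log2 fold change was 0.97 (SE 0.31, 95% confidence interval 0.29 to 1.65, limma adjusted p = 0.0763, exact permutation p = 0.0238). It passed the threshold without Smad4del mouse A5216 (adjusted p = 0.0441). Reads of Cyp2d10 may be shared with Cyp2d9 and Cyp2d11, since 11.7% of its stretches of 100 bases, the read length, also occur in those genes. Cyp2d22, the most abundant Cyp2d gene, read 3234 to 4045 in Ctl and 3087 to 5935 in Smad4del (0.26, adjusted p = 0.266).

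Cyp3a13, a steroid and drug hydroxylase known for expression in intestine and liver, was named after its values were seen. It read 229.6, 167, 136, 188 and 169.9 normalised counts in Ctl and 288, 245, 232, 246 and 235 in Smad4del. The cohorts lie apart, narrowly so between the highest Ctl mouse, A5215, and the lowest Smad4del mouse, A5218. The log2 fold change was 0.50 (SE 0.17, 95% confidence interval 0.13 to 0.87, limma adjusted p = 0.0899, exact permutation p = 0.00794), and it was called after quantile normalization only (adjusted p = 0.0442). Cohorts that lie apart always give the smallest permutation p. For a gene picked after its values were seen, that p is therefore no separate support. Its direction was upwards in all 27 alternatives, which refit the same mice or a part of them, from 0.36 to 0.86.

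For several classical hepatocyte P450 genes 1 animal stood apart. Ctl mouse A5626 had the highest value of the 10 mice for 11 of the 38 tested members: Cyp1a2, Cyp2a5, Cyp2b10, Cyp2c29, Cyp2c38, Cyp2c39, Cyp2c70, Cyp2d9, Cyp2d26, Cyp2e1 and Cyp3a11. Cyp3a11, the main mouse counterpart of the human drug-metabolising CYP3A enzymes and a target of the pregnane X receptor, read 866, 273, 286, 4855 and 326 in Ctl and 874, 546, 208, 204 and 664 in Smad4del. The other 9 mice lie within one range in both cohorts, and A5626 was 14.9 times their median. Cyp2a5, coumarin 7-hydroxylase, read 781 in A5626 and 14.4 to 88.1 in the other 9 mice (20.7 times their median). Cyp1a2 stood at 11.5 times and Cyp2c29 at 7.95 times the median of the others. For Cyp2e1 and Cyp2d26, in contrast, A5626 was only 1.19 and 1.09 times the next highest mouse. Cyp2f2 (0.46 times the median of the others), Cyp2a12 (1.01 times) and Cyp2c50 (1.67 times) lay within the range of the other mice there. So did Cyp2c44 (5.41 times), Cyp2c67 (4.11 times) and Cyp3a25 (3.15 times), although well above the median. A5626 was singled out after these values were seen, and the share of all genes that are highest in it was not computed. Values of Cyp2a5 may be shared with Cyp2a4 (12.1% of its 100-base stretches).

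The 7 other hepatocyte genes examined stayed within the range of the other mice there. Alb read 22170.4 in A5626, 0.86 times the median of the other 9, Hnf4a 0.76 times, Ttr 0.94 times and Cps1 0.74 times, Apoa1 1.67 times, and the pericentral hepatocyte genes Glul 1.13 times and Oat 1.10 times. Cyp7a1, the rate-limiting enzyme of bile acid synthesis and a family 7 gene, read 152 normalised counts in A5626, 11.97 in A5215 and 0 in the other 8 mice. The P450 genes abundant in every sample did not stand out there either, with Cyp2j6 at 0.87 times, Cyp2d22 at 0.80 times and Cyp2j5 at 0.95 times the median of the others. Without A5626 the log2 fold change of Cyp3a11 went from -0.60 to 0.13, that of Cyp2a5 from -0.52 to 0.38 and that of Cyp2c29 from -0.24 to 0.47, none of them called with or without it.

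**Figure D4:**
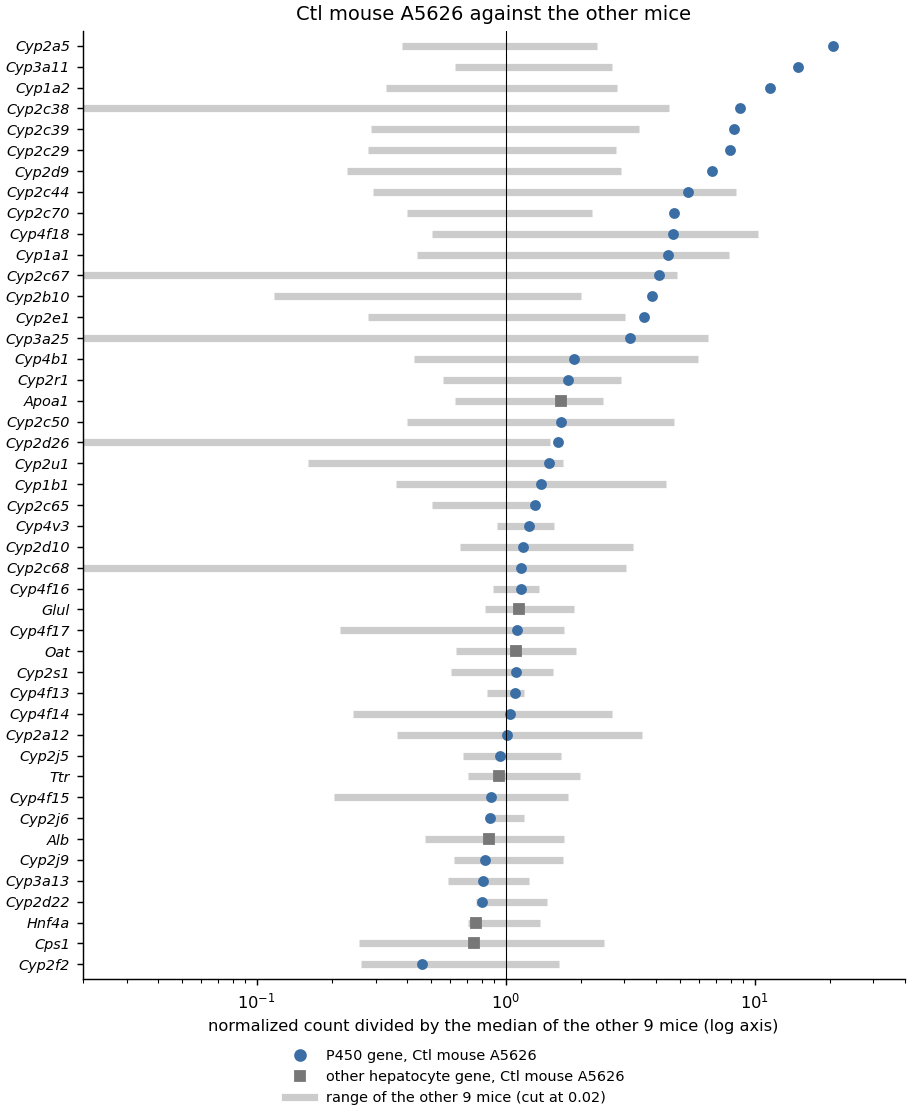
Normalised count in Ctl mouse A5626 divided by the median of the other 9 mice (log axis) for the 38 tested P450 genes (circles) and 7 other hepatocyte genes (squares), with grey bars for the range of the other 9 mice. Cyp2a5 (20.7), Cyp3a11 (14.9) and Cyp1a2 (11.5) lie far to the right of their bars, and Alb (0.86) within its bar.

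Family 2 enzymes with other roles were not called. Cyp2e1, the ethanol-inducible enzyme, ranged from 161 to 830.4 normalised counts in Ctl and from 64.9 to 698 in Smad4del (-0.62, limma adjusted p = 0.555). Cyp2b10, the target of the constitutive androstane receptor, was 36.1 to 167 in Ctl and 5.07 to 59.5 in Smad4del (-1.44, adjusted p = 0.170). Cyp2s1, an extrahepatic epithelial enzyme, was 589 to 1233 in Ctl and 560.0 to 1434 in Smad4del (-0.12, 95% confidence interval -0.67 to 0.42). The vitamin D 25-hydroxylase Cyp2r1 stayed between 12.9 and 67.4 normalised counts, and the lung and liver enzyme Cyp2f2 between 11.97 and 74.9. Cyp2u1, a fatty acid hydroxylase, stood at -0.97 on the log2 scale (adjusted p = 0.259), Cyp2c38 at -1.86 (adjusted p = 0.412) and Cyp2c67 at 1.39 (adjusted p = 0.354), the last with 23.7% of its 100-base stretches shared with other genes and between 0 and 31.9 normalised counts in all.

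In family 4, none of 8 tested genes was called by limma. An unadjusted p under 0.05 was reached by 4 of the 8, a limit that 27.4% of all genes tested pass. Cyp4b1, a hydroxylase of short- to medium-chain fatty acids, read 3549.5, 806, 942, 1121 and 609 normalised counts in Ctl mice A5215, A5219, A5221, A5626 and A5628, and 597, 503, 384, 255 and 472 in Smad4del mice A5216, A5217, A5218, A5447 and A5624. Every Smad4del mouse was below every Ctl mouse, and Ctl mouse A5215 was far above the other Ctl mice. Its log2 fold change was -1.41 (SE 0.41, 95% confidence interval -2.29 to -0.52), with a limma adjusted p = 0.0562 and an exact permutation p = 0.00794. It also passed the threshold in DESeq2, and in limma with Xist as a covariate (adjusted p = 0.0180) or without Ctl mouse A5215 (adjusted p = 0.0462) or A5628 (adjusted p = 0.0429). Per 1000 endothelial marker counts Cyp4b1 overlapped between the cohorts, at 12.6 to 40.5 in Ctl and 14.2 to 40.5 in Smad4del, as Smad4 did by this ratio. With the mean log2 macrophage marker level in the model, the log2 fold change of Cyp4b1 was -0.61 (limma adjusted p = 0.274). Ctl mouse A5215 was the highest of all mice for 7 tested members (Cyp1a1, Cyp4b1, Cyp4f13, Cyp4f16, Cyp4f17, Cyp4f18 and Cyp4v3), and also had the highest endothelial, macrophage and neutrophil sums.

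Cyp4f18, the leukotriene B4 hydroxylase of neutrophils, read 703, 161, 236, 319 and 61.1 in Ctl and 426, 67.9, 34.5, 36.8 and 35.5 in Smad4del. Cohorts overlap, and Smad4del mouse A5216 was apart from the other 4 of its cohort. The log2 fold change was -1.71 (SE 0.75, limma adjusted p = 0.167). The 10 neutrophil markers, of which 1 was at 0 in all mice, summed to 3732, 865, 1047, 1467 and 369.7 in Ctl and 2255, 284, 223, 181 and 113 in Smad4del. Mice A5215, A5216, A5626, A5221 and A5219 were the top 5 for both, in that order. The same 5 mice also had the highest macrophage marker sums, in another order. These were 337913 in A5215, 166574 in A5626, 115338 in A5216, 84974 in A5219 and 79490 in A5221. Per 1000 neutrophil marker counts Cyp4f18 was 165 to 225 in Ctl and 155 to 315 in Smad4del, and the sort for CD45-negative cells would remove neutrophils. Per 1000 macrophage marker counts it was 1.54 to 2.97 in Ctl and 0.747 to 3.69 in Smad4del, with overlap as well. The part of neutrophils or macrophages in the values of Cyp4f18 was not tested. Without Smad4del mouse A5216, Cyp4f18 was called lower (-2.37, adjusted p = 0.0356).

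Over all 10 mice, the other tested ω-hydroxylases were not called by limma either. Cyp4v3, a medium-chain ω-hydroxylase whose human counterpart is mutated in Bietti crystalline dystrophy, was 1055 to 1738 in Ctl and 1019 to 1273 in Smad4del (-0.33, limma adjusted p = 0.133). Cyp4f13 was 837 to 1029 in Ctl and 730.5 to 971 in Smad4del (-0.17, adjusted p = 0.293), and Cyp4f16 was 623 to 908 in Ctl and 598 to 839 in Smad4del (-0.03, 95% confidence interval -0.32 to 0.26). Cyp4f15 had 18.5 to 96.6 in Ctl and 80.1 to 162 in Smad4del (1.19, adjusted p = 0.134). Cyp4f14, named after its values were seen, had 80.5 to 467 in Ctl and 235 to 880.3 in Smad4del (1.01, adjusted p = 0.204). The peroxisome proliferator-inducible Cyp4a genes were low, with Cyp4a29 at 0, Cyp4a14 read in 1 mouse, and none of the 5 reaching a mean of 10.

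**Figure D5:**
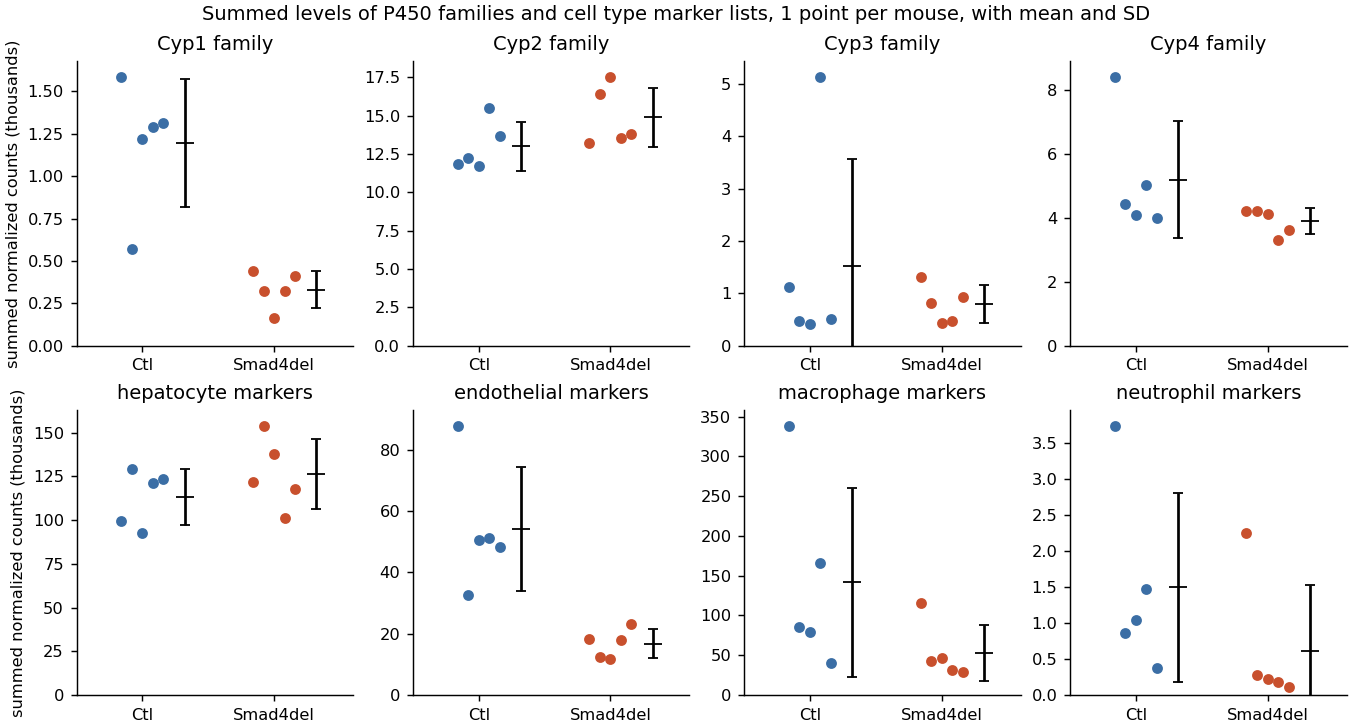
Summed normalised counts (in units of 1000) of each P450 family and of 4 cell type marker lists in each mouse, with the mean and SD of 5 mice per cohort (bars, cut at 0). The Cyp1 family and the endothelial markers both lie apart between the cohorts, the Cyp3 family is high in Ctl mouse A5626 alone, and the neutrophil markers are highest in A5215 and A5216.

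The partners of the P450 enzymes did not pass the test. None of the 7 electron donors was called: Por, the oxidoreductase that all microsomal P450 enzymes need, was 2891 to 6023 normalised counts in Ctl and 2585 to 5933 in Smad4del (-0.38, limma adjusted p = 0.315), and cytochrome b5, Cyb5a, was 5499 to 6512 in Ctl and 5912 to 9695 in Smad4del (0.36, adjusted p = 0.105). None of the 19 tested xenobiotic receptors and their partners was called either. The pregnane X receptor gene Nr1i2 stood at 0.60 on the log2 scale (adjusted p = 0.134), Ppara at 1.04 (adjusted p = 0.0953) and Hnf4a at 0.21 (adjusted p = 0.393), and Nr1i3, the constitutive androstane receptor, stayed at or below 20.7 normalised counts. For the hepatocyte gene Alb the log2 fold change came to 0.67 (adjusted p = 0.143).

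Of 10 tested P450 genes in families 5 and above, 1 was called. Cyp26b1, which degrades retinoic acid, read 523, 144, 185, 352 and 123 normalised counts in Ctl and 85.0, 6.99, 29.4, 79.2 and 28.2 in Smad4del. All Smad4del mice were below all Ctl mice. Its log2 fold change was -2.73 (SE 0.63, limma adjusted p = 0.0268), and it lost the call when any 1 of Ctl mice A5215, A5221 and A5626 or Smad4del mice A5218 and A5624 was left out (adjusted p = 0.0539 to 0.0629) and with the mean log2 endothelial marker level in the model (-0.38, adjusted p = 0.997). Of 8 P450 genes known to be higher in female mouse liver, 3 were at 0 in all mice and 1 was tested, Cyp2c39, which was highest in Ctl mouse A5626, a mouse without Xist. Of 4 P450 genes known to be higher in male mouse liver, Cyp2d9, Cyp7b1, Cyp4a12a and Cyp4a12b, 3 were tested and none was called, with sums of 161 to 445 normalised counts in Ctl and 95.8 to 312 in Smad4del.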

How the data were processed

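RNA was taken from 10 sorted samples and sequenced as single-end reads of 100 bases after SMART-Seq v4 amplification, a kit that does not mark strand. Per the labels and the study's methods, the authors trimmed with Trimmomatic 0.36, aligned with STAR 2.5.2b, counted with featureCounts (subread 1.5.0p3, GENCODE M12) and normalised with DESeq2 1.14.1 in R 3.3.2. Both GRCm38.p5 and mm9 are named as builds. For multi-mapping reads, whether the deposited table includes them is not stated in what was read here.

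The deposited values are a signal, counts divided by a size factor per mouse. All values (100%) were whole multiples of 1 read within a relative tolerance of 1e-06. In Smad4del mouse A5217 1 read is worth 0.998, close to 1, and count models were also run without this mouse. Genes with a mean of at least 10 (14870) were tested with limma 3.58.1 (eBayes with trend) on log2(value + 1), with Benjamini-Hochberg adjustment and a threshold of 0.05, and single genes by an exact two-sided permutation test over 252 splits. edgeR 4.0.16 and DESeq2 1.42.0 were alternatives, next to other pseudocounts, filters, scalings, covariates (the mean of log2(value + 1) over the markers of a list, and Xist), blocks of mouse numbers and leaving out each mouse. The tests were checked on simulated data.

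Exon lengths, coordinates and shared stretches of 100 bases came from GENCODE M21 on GRCm38 (all 75 members found, 1 by a synonym), and 250 bases upstream from RefSeq (62 members found). Named genes were those called, the most abundant per kb in each subfamily with a tested gene, the 8 with the largest change, the 8 most abundant per kb, and Smad4, Por, Ahr, Nr1i2, Nr1i3, Ppara, Hnf4a, Xist, Alb and called genes of the pathway lists. Some others are marked in the text. Further members singled out there, among them Cyp2a12, Cyp2c44, Cyp2c50, Cyp2d26 and Cyp3a25, were also picked after their values were seen. Other genes of the pathway and marker lists that are given with values, among them Cyp7a1, Xdh, Nqo1, Ahrr, Aldh3a1, Gsta1, Cyb5a, Apoa1, Ttr, Cps1, Glul and Oat, were picked after their values were seen. The members and lists were chosen with earlier results of these data known.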

Additional observations from a re-analysis of the deposited data

Results flagged for a closer look

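Of the 36 genes followed by name, each with 2 cohorts of 5 mice (72 groups), some held a mouse far from the others by Dixon's criterion (gap over range above 0.71). Chance gives this in about 1 in 20 groups of normally distributed values. That rate was not checked for normalised counts, so the number of groups on that scale is not to be read against it. The criterion was met by 10 groups on normalised counts, 6 of them in Ctl, and by 5 on the log2(normalised count + 1) scale, all in Smad4del, with 4 groups on both scales. The count scale was added after seeing the data. On counts alone, Ctl mouse A5626 was high for Cyp3a11, at 4855 normalised counts against 273 to 866 in the other 4 Ctl mice, for Cyp2c29, at 1289.8 against 45.3 to 243, for Cyp2a5, at 781 against 14.4 to 88.1, for Cyp1a2, at 593 against 16.99 to 57.4, and for Cyp2c67, at 26.9 against 0 to 6.53. Ctl mouse A5215 was high for Cyp4b1, at 3549.5 against 609 to 1121, also on counts alone. On both scales Smad4del mouse A5216 was high for Cyp4f18, at 426 against 34.5 to 67.9, and for Cyp3a13, at 288 against 232 to 246. Smad4del mouse A5447 was high for Por, at 5933 against 2585 to 3191, and was the sole mouse of its cohort with Xist, at 889 against 0, again on both scales. On the log2 scale alone it was low for Cyp2c67, at 1.84 against 15.2 to 31.9.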

How the results depend on the processing

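No paired analysis was possible because the labels give the cohorts no shared replicate number and name no litters. Blocks of mouse numbers that start alike (A52, A54 and A56, with A5447 alone in its block) were fitted in place of pairs and kept Cyp1a1 (-2.16) and Cyp1b1 (-2.03) called. With 2 cohorts of 5, limma called 0 P450 genes higher and 2 lower, and 362 and 697 of all genes. P450 members called higher became 2 with DESeq2 and 1 with DESeq2 without mouse A5217, median scaling or quantile normalization, and ranged from 0 to 2 when each mouse was left out. P450 members called lower became 0 with the endothelial or hepatocyte covariate or without the mice with Xist and 1 with the macrophage covariate, but 3 with DESeq2 (with or without mouse A5217) or the Xist covariate, and ranged from 2 to 3 when each mouse was left out. The counts of all genes called higher and all genes called lower were 893 and 1290 with DESeq2, 89 and 265 with edgeR without mouse A5217, 0 and 0 with the endothelial, 15 and 57 with the hepatocyte and 152 and 400 with the macrophage covariate, 109 and 262 without mice A5215 and A5626, and 34 and 105 without the mice with Xist. All genes called higher were 626 with median scaling, 579 with quantile normalization and 209 without a filter. Leaving out each mouse gave 105 to 563 higher and 329 to 852 lower. The alternatives without A5215 and A5626 and without the mice with Xist were chosen after seeing the data. The cause of these moves was not tested.

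The log2 fold changes whose sign turned were as follows. With DESeq2 they were Cyp1a2 -0.76. With DESeq2 without mouse A5217 they were Cyp1a2 -1.01 and Cyp2s1 0.028. With the Xist covariate they were Cyp2f2 -0.16, Cyp2s1 0.028 and Nr1i3 -0.23. With edgeR they were Cyp1a2 -0.75. With edgeR without mouse A5217 they were Cyp1a2 -0.9975 and Cyp2s1 0.038. With the endothelial marker covariate they were Ahr 0.094, Alb -0.37, Cyp2a5 0.45, Cyp2c29 0.83, Cyp2c38 1.70, Cyp2d10 -0.40, Cyp2d22 -0.17, Cyp2e1 0.66, Cyp2j5 -0.23, Cyp2j6 -0.20, Cyp2s1 0.54, Cyp2u1 0.37, Cyp3a11 1.21, Cyp4b1 0.073, Cyp4f15 -0.28, Cyp4f16 0.15, Cyp4f18 0.31, Hnf4a -0.0804, Nr1i2 -0.48, Por 0.19 and Tiparp 0.044. With the hepatocyte marker covariate they were Cyp1a2 -0.18, Cyp2c67 -0.24, Cyp2f2 -0.95, Cyp2r1 -0.33, Cyp2s1 0.41, Nr1i3 -1.28, Por 0.12 and Xist 2.34. With the macrophage marker covariate they were Cyp2a5 0.35, Cyp2c29 0.58, Cyp2e1 0.46, Cyp3a11 0.41, Cyp4f16 0.19 and Hnf4a -0.055. With median scaling they were Cyp4f16 0.036. With mouse number blocks they were Cyp2c29 0.15. With quantile normalization they were Cyp4f16 0.023. Without mice A5215 and A5626 they were Cyp2a5 0.84, Cyp2c29 0.84, Cyp2e1 0.0050, Cyp3a11 0.52 and Cyp4f16 0.11. Without the mice with Xist they were Nr1i3 -0.17. When each mouse was left out, the ranges of genes whose sign turned were Cyp1a2 -0.13 to 1.136, Cyp2a5 -1.03 to 0.38, Cyp2c29 -0.73 to 0.47, Cyp2f2 -0.20 to 0.43, Cyp2r1 -0.032 to 0.54, Cyp2s1 -0.30 to 0.041, Cyp3a11 -0.91 to 0.13, Cyp4f16 -0.091 to 0.054 and Nr1i3 -0.18 to 0.50.

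Cyp1a1 kept its call in 23 and Cyp1b1 in 24 of 27 alternatives, all of which refit the same mice or a part of them. Both lost it with the endothelial or hepatocyte marker covariate and without the mice with Xist. Cyp1a1 also lost it with the macrophage marker covariate. Both stayed below 0 in all 27, but with the endothelial marker covariate Cyp1a1 was near 0 (-0.08) and Cyp1b1 at -0.33. The depth of 16249719 to 21277339 reads per mouse leaves 28 members under a mean of 10, which were not tested.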
